A study of Mus musculus with 2 samples.

Results

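The quiescent satellite cells of uninjured mouse muscle were taken from the QSC library of a single-cell RNA-seq study of muscle stem cell activation. Of 766 deposited barcodes in that library, 379 (49.5%) were taken as quiescent satellite cells, among 2416 barcodes in the series. They were chosen by measured values: at least 500 detected genes, at most 10% of UMIs (unique molecular identifiers, the transcript counts of this assay) from mitochondrial genes, under 5% from 10 muscle fibre genes (Myf6, Myh4, Acta1, Ckm, Mylpf, Tnnt3, Tnnc2, Myh1, Pvalb and Atp2a1), under 0.2% from 6 immune genes (Tyrobp, Fcer1g, Laptm5, Cd52, Coro1a and Cd53) and under 0.5% from 6 stromal genes (Dcn, Clec3b, Col1a1, Col3a1, Pecam1 and Cdh5). These genes, and the mitochondrial genes, are therefore no findings below. Both libraries came from mice of the genotype Pax7 CreERT2/+ ;Rosa26 mTmG/+ at 8 weeks of age, in which a recombinase made under the control of Pax7 switches the colour of a membrane reporter, so that Pax7-lineage cells can be sorted by flow cytometry. The QSC group was sorted from uninjured muscle, and the ASC group (activated satellite cells) from muscle on day 1.5 after an injection of cardiotoxin (CTX), which destroys muscle fibres. The labels give the tibialis anterior as the tissue, while the protocol speaks of hind-limb muscles. There was 1 library per group, so library and state cannot be told apart, every difference lacks a check by replicates and was not tested. Intervals are exact 95% intervals for counting error only.

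Satellite cells lie between the muscle fibre and its basal lamina and are the stem cells of skeletal muscle. In resting muscle they stay out of the cell cycle, make little protein and keep Pax7 and Myf5 transcripts, while Notch signals, cell cycle inhibitors and adhesion to the niche hold them in that state. After injury they leave quiescence, take up Myod1, enter the cell cycle and later turn on Myog as they commit to fusion. Their release from muscle by enzymes is itself known to set off early-response transcription factors of the Fos, Jun and Egr families, so freshly sorted cells are not identical with cells in place.

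The quiescent cells held 857956 UMIs, with a lowest, median and highest depth of 762, 2217 and 5070 UMIs per cell and a median of 975 detected genes. Their median mitochondrial share was 4.88%, and their median share of fibre gene UMIs was 1.59%. The other kept barcodes of the library were 104 fibre-rich, 15 immune and 18 stromal barcodes, and 250 barcodes had too few genes or too many mitochondrial UMIs. The same limits left 420 ASC barcodes (called ASC cells below), which were deeper, at 8389 UMIs and 2321 genes in the median cell, of whose UMIs 2.29% were mitochondrial. In the QSC library no barcode lay near the fibre limit: the nearest quiescent cell had 3.23% and the nearest fibre-rich barcode 7.04% fibre gene UMIs. At its other limits the nearest cells inside and outside had 517 and 447 genes, 8.93% and 10.2% mitochondrial, 0.160% and 0.278% immune and 0.433% and 0.590% stromal UMIs. The ASC library had no such gap at the fibre limit. Its ASC cells reached 4.85%, its fibre-rich barcodes began at 5.05%, and a fibre limit of 2% left 311 ASC cells. The 2 libraries shared 4 barcode sequences, of which 1 was a quiescent cell.

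**Figure D1:**
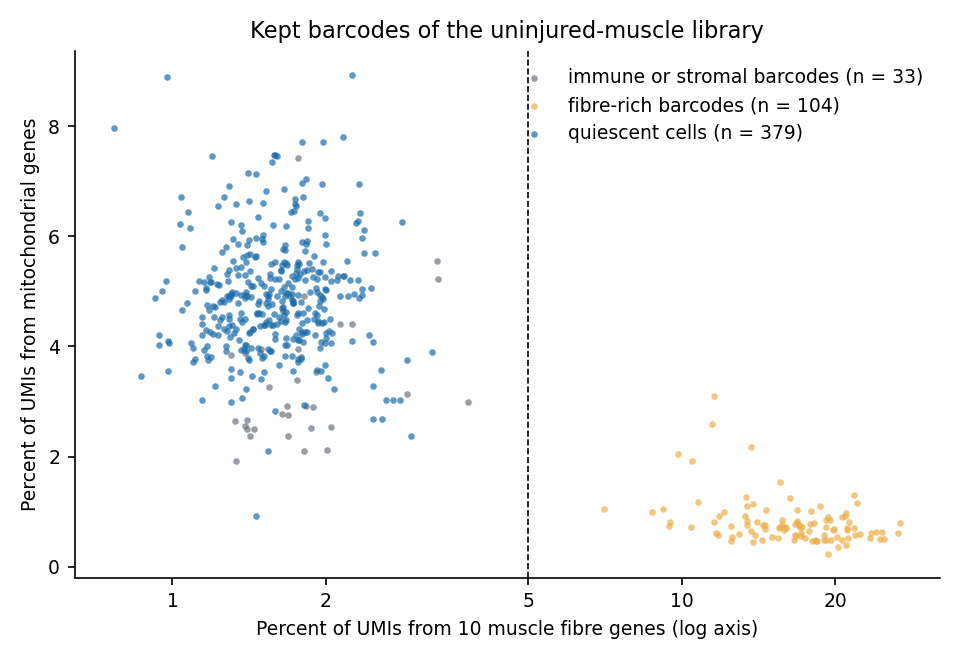
Percent of UMIs from the 10 fibre genes (x axis, logarithmic) against percent of UMIs from mitochondrial genes (y axis) for the 516 kept barcodes of the QSC library, each point 1 barcode, with the fibre limit of 5% as a dashed line. The 379 quiescent cells lie between 0.768% and 3.23% fibre gene UMIs and the 104 fibre-rich barcodes between 7.04% and 26.9%, with no barcode near the limit.

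The label was checked against Pax7, Myf5, Chodl and Sdc4, and at least 1 of the 4 had a UMI in 371 of the 379 cells (97.9%). To compare with other barcodes at equal depth, each cell was thinned at random to 1200 UMIs, which left 370 quiescent cells. At that depth 96.8% of them (95% interval 94.4 to 98.3) held at least 1 of the 4 markers, against 53.0% of 415 ASC cells, 11.1% of 90 fibre-rich barcodes and 53.6% of 28 immune or stromal barcodes. The median depths before thinning were 1635 UMIs for the fibre-rich and 2153 for the immune or stromal barcodes. Chodl (chr16:78930948-78951733, GRCm38, plus strand), a membrane protein with a lectin domain, was the most widespread of the 4, in 80.5% of quiescent cells (76.1 to 84.5) against 83 of 415 ASC cells, 3.33% of fibre-rich and 17.9% of immune or stromal barcodes. Sdc4, a heparan sulphate co-receptor, was in 74.9% of quiescent cells and also in 42.9% of the immune or stromal barcodes, so it does not mark satellite cells alone. Myf5, a myogenic transcription factor, was in 41.6% of quiescent cells and 9.88% of ASC cells. Pax7 (chr4:139737062-139833528, minus strand), the transcription factor that defines the lineage, was in 15.9% of quiescent cells (12.4 to 20.1), 5.54% of ASC cells and 0 of 90 fibre-rich barcodes, which by a limit of 3 barcodes allows a share with a UMI of up to 3.33%. Without thinning, Pax7 was seen in 31.9% of the quiescent cells and Chodl in 92.9%, so a cell without a Pax7 UMI at this depth is not shown to lack the gene.

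**Figure D2:**
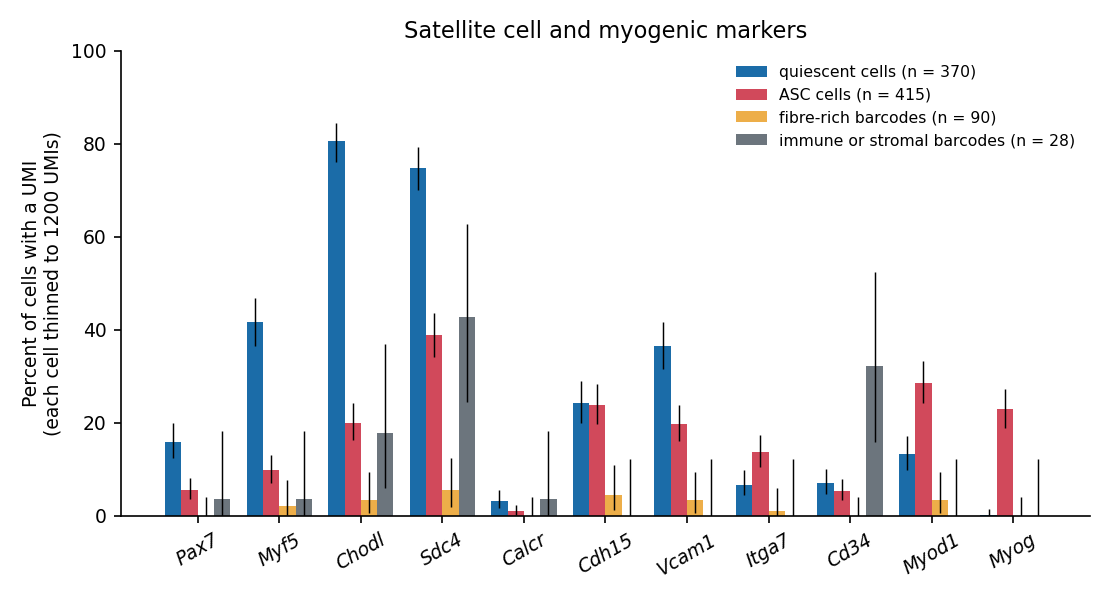
Percent of cells with at least 1 UMI of each marker (y axis) after thinning each cell to 1200 UMIs, in quiescent cells, ASC cells, fibre-rich barcodes and immune or stromal barcodes, with exact 95% binomial intervals as error bars. Chodl stands at 80.5% and Pax7 at 15.9% of quiescent cells, and Myog at 0.270% of quiescent against 22.9% of ASC cells.

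Markers of immune, endothelial, pericyte and erythroid cells were sparse, whereas every quiescent cell held UMIs of muscle fibre markers. Of 10 macrophage or monocyte markers outside the rule, 6 were detected with 65 UMIs in all, and Adgre1, Ctss, Plac8 and Ly6c2 were at 0. Of 8 lymphocyte markers 1 was detected, with 1 UMI. Pericyte or smooth muscle markers took 328 UMIs (0.0382% of all, against 0.126% in ASC cells) and 247 quiescent cells had none, while Acta2, the smooth muscle actin, was in 93 cells. Erythroid markers took 113 UMIs (0.0132% against 0.168% in ASC cells) and 280 cells had none. In 12 quiescent cells at least 0.5% of UMIs came from endothelial (7 cells), pericyte (4 cells) or macrophage markers (1 cell). Of the 12, 8 also held satellite cell markers. After thinning to equal depth, 22 of 28 immune or stromal and 17 of 90 fibre-rich barcodes held at least 1 of 10 satellite cell markers. Holding such a marker therefore does not show that the 8 are satellite cells. These 12 cells held 85 of the 95 UMIs of Fabp4, a lipid carrier of endothelium and fat, and 57 of the 86 UMIs of Aqp1, a water channel of endothelium. The summed share of 10 fibre genes outside the rule ran from 0.182% to 2.65% over quiescent cells, with a median of 0.606%. The median was 6.87% in fibre-rich barcodes and 0.680% in immune or stromal barcodes. In quiescent cells these 10 genes took 5127 UMIs, against 4753 of 10 satellite cell markers.

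Outside mitochondrial, ribosomal protein and rule genes, the most abundant transcript was the nuclear noncoding RNA Malat1, at 65282 CPM (the gene's UMIs per 1000000 UMIs, a level that in this 3' assay is not divided by length). Its level was 6847 CPM in ASC cells and 2247 CPM in fibre-rich barcodes, but 48768 CPM in the immune or stromal barcodes of the QSC library. At 1200 UMIs its lowest, median and highest counts were 4, 79 and 189 per quiescent cell and 0, 8 and 608 per ASC cell, so the ranges overlapped although most quiescent cells lay above most ASC cells. The metallothioneins Mt1 and Mt2, which bind zinc and copper, followed at 12783 and 9883 CPM. They are near-identical neighbours on chromosome 8, so reads can be split between them. The other 12 of the 15 most abundant genes were Fos, Gpx3, Junb, Jund, Ubb, Jun, Actb, Fosb, Fth1, Apoe, Eef1a1 and Gsn. Gpx3 (5465 CPM), a secreted glutathione peroxidase, and Apoe (3435 CPM), a lipoprotein component, stood at 793 and 363 CPM in ASC cells. In the immune or stromal barcodes Gpx3 stood at 2119 CPM and Apoe at 10084 CPM, above its level in quiescent cells. Gsn, an actin-severing protein and also a fibro-adipogenic marker, stood at 3138 CPM in quiescent cells and 25042 CPM in the immune or stromal barcodes, while the other 8 fibro-adipogenic markers outside the rule together took 249 UMIs.

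The quiescent cells were then set beside the ASC cells, to ask how the resting state differs from the activated one. Of 9973 genes with at least 20 UMIs over both populations, 2084 (20.9%) were at least 2-fold higher in quiescent cells with an interval that excluded equal levels, and 1461 (14.6%) were lower by the same rule. Below, higher and lower in counts mean this rule, and each list's share is to be read against those 2 percentages. The median log2 ratio over all genes was 0.08. This split depends on scaling: TMM scaling moves every log2 ratio down by 0.32 and median-of-ratios scaling by 0.30, and with TMM 1481 genes were higher and 2221 lower, so that the higher genes made up 40.0% of calls instead of 58.8%. The depth of the ASC cells matters too. Leaving out barcodes above 2 times the median depth of their population (the deepest barcodes) removed 108 ASC cells and 1 quiescent cell. It left 1342 higher and 930 lower genes. The ASC total fell from 5295005 to 2192599 UMIs, so the deepest cells weigh heavily in every pooled ratio over ASC cells. After thinning to equal depth, Chodl had a mean of 1.84 UMIs per quiescent and 0.301 per ASC cell. Fos had 10.9 and 2.15, Pax7 0.189 and 0.0578, and Malat1 80.4 and 15.5. These ratios were smaller than the pooled ones, whose intervals do not cover this dependence. Eef1a1 (4.06 and 8.60) stayed near its pooled ratio.

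**Figure D3:**
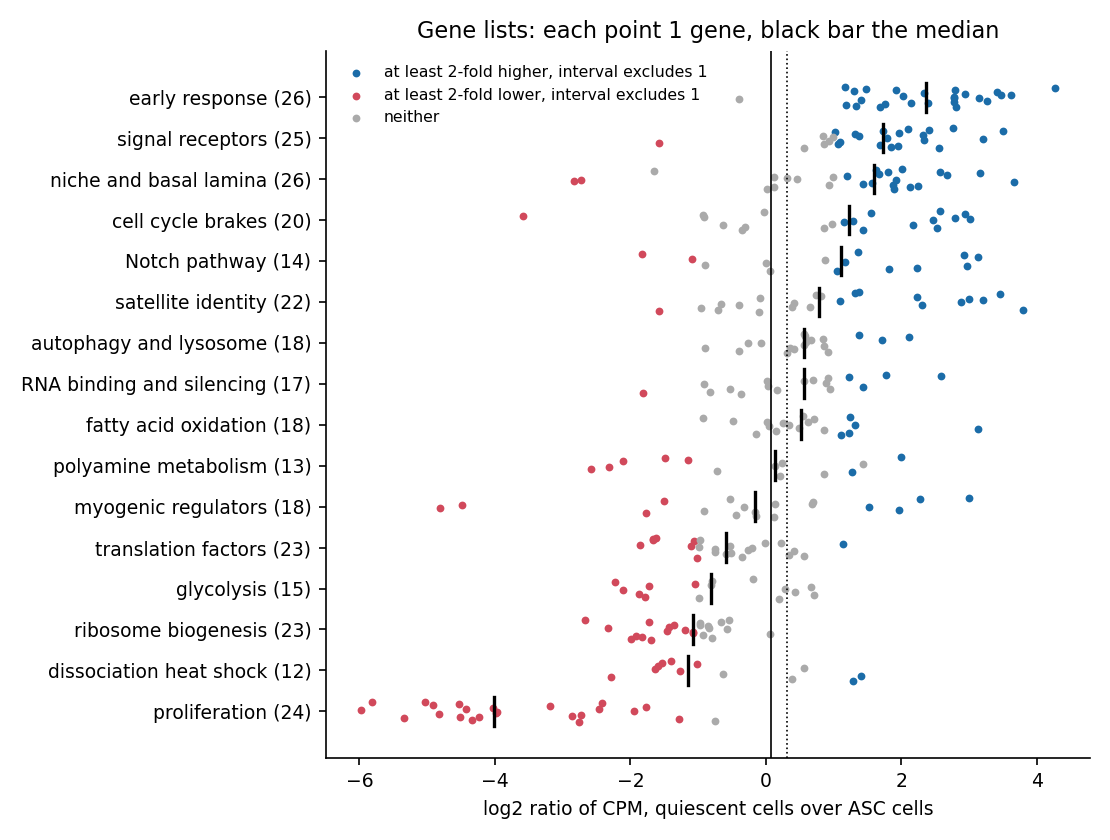
log2 ratio of CPM in quiescent cells over ASC cells (x axis) for the genes of 16 lists with at least 20 UMIs over both populations, each point 1 gene and the number of genes in brackets. Black bars are list medians, from 2.37 for early response to -4.01 for proliferation. The solid line is the median of all 9973 genes and the dotted line marks equal levels under TMM scaling.

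Satellite identity genes were mixed rather than uniformly higher. Of 22, 10 were higher (45.5%), 1 was lower and 11 were neither, with a median log2 ratio of 0.78. The highest were Chodl, at 1489.6 CPM in quiescent and 107 CPM in ASC cells (log2 ratio 3.80, 3.65 to 3.94), and Pax3, a paralogue of Pax7, at 37.3 and 3.40 CPM (3.46, 2.58 to 4.38). Calcr, the calcitonin receptor, stood at 28 and 3.02 CPM from 24 and 16 UMIs (3.21, 2.24 to 4.22). Myf5 stood at 514 and 64.6 CPM (2.99), Pax7 at 212 and 28.7 CPM (2.89), Spry1, a brake on growth factor signalling, at 213 and 43.1 CPM (2.31), and Sdc4 at 2405 and 515 CPM (2.22). Among further surface proteins of satellite cells, Vcam1 had a log2 ratio of 1.37, Cd34 of 0.74, Cdh15 (M-cadherin) of 0.41, Cxcr4 of -0.09 and Itga7 of -0.95. Met, the receptor of hepatocyte growth factor, was the 1 lower gene, with 7 UMIs in the quiescent cells (-1.58, -2.92 to -0.49).

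Among 18 myogenic regulators 4 were higher and 4 lower (22.2% each), with a median log2 ratio of -0.16. The share of higher genes is near that over all genes. Besides Myf5, the higher genes were Id3 (2502 against 519 CPM, 2.27) and Msc (163 against 41.9 CPM, 1.96), which hold back myogenic factors, and Tcf4 (291 against 101 CPM, 1.53). Myod1, the factor of activation, was lower in quiescent cells but not absent, at 147 against 416 CPM (-1.50, -1.77 to -1.24). At 1200 UMIs 49 of 370 quiescent cells (13.2%) held Myod1, against 28.7% of ASC cells, 3.33% of fibre-rich and none of the immune or stromal barcodes. Among the 59 cells with Pax7 the share with Myod1 was 20.3% (11 to 32.8) and among the 311 without it 11.9% (8.52 to 16), and the intervals overlap. Myog, the factor of terminal commitment, stood at 33.8 against 946 CPM (-4.81), and 28 of its 29 UMIs came from 1 quiescent cell, which was also 1 of the 12 with markers of other cell types. Mymk, the fusion protein myomaker, had 4 UMIs in quiescent cells and 555 in ASC cells (-4.49), and Mymx, its partner myomixer, had 0 and 63, at least 3.40-fold lower against a floor of 3 UMIs.

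Of 17 Notch pathway genes 14 reached 20 UMIs, and of these 8 were higher, 2 lower and 4 neither, with a median of 1.11. Under TMM scaling 5 of the 14 were higher, and without the barcodes above 2 times the median depth 4 of 12, with 2 lower and a median of 0.64. Among receptors, Notch2 stood at 261 against 55.5 CPM (2.23, 1.98 to 2.49) and Notch3 at 129 against 17.0 CPM (2.93, 2.51 to 3.35), while Notch1 stood at 40.8 against 22.3 CPM (0.87, 0.28 to 1.43). Of the ligands, Jag1 was higher (43.1 against 4.91 CPM, 3.13) and Dll1 lower (11.7 against 24.9 CPM, -1.10). Of the target genes, which are transcriptional repressors, Hes1 stood at 539.7 against 68.7 CPM (2.97, 2.77 to 3.17), Heyl at 118 against 33.4 CPM (1.82) and Hey1 at 31.5 against 14 CPM (1.17). Hes6, which acts against Hes1, was lower at 31.5 against 112 CPM (-1.83). Rbpj, the DNA-binding partner of all Notch receptors, did not differ beyond counting error (35 and 33.6 CPM, 0.06, -0.55 to 0.62). At 1200 UMIs Hes1 was in 34.1% of quiescent cells, 9.64% of ASC cells, 2.22% of fibre-rich and 10.7% of immune or stromal barcodes.

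Of 26 receptors for signals from outside the cell, 25 reached 20 UMIs, 19 were higher (76.0%) and 1 (Met) lower, with a median of 1.73. When barcodes above 2 times the median depth were left out, 12 of 23 were higher, with a median of 1.16. The median share of UMIs from this list was 0.151% in quiescent cells and 0.0572% in ASC cells. It was 0.149% in the immune or stromal barcodes, so the level is not particular to the quiescent cells. Tgfbr3, the betaglycan co-receptor of the TGF-beta family, was the most different at 185 against 16.4 CPM (3.50, 3.11 to 3.89). Lifr, the receptor of leukaemia inhibitory factor, stood at 49 against 8.31 CPM (2.56), Nr3c1, the glucocorticoid receptor, at 99.1 against 18.7 CPM (2.41), and Lrp6, a Wnt co-receptor, at 78.1 against 15.7 CPM (2.32). The most abundant of the list, Fgfr1 (296 against 119 CPM, 1.32) and Fgfr4 (191 against 89.9 CPM, 1.09), receptors of fibroblast growth factors, were closer to the ASC level.

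Of 29 niche and basal lamina genes 26 reached 20 UMIs, 16 were higher and 2 lower, with a median of 1.6. Leaving out the barcodes above 2 times the median depth, 9 of 25 were higher (median 0.74), and with every cell given equal weight 11 of 26 (0.89). The higher genes spanned the chains of the basal lamina: Nid1, which links laminin to collagen IV (45.5 against 3.59 CPM, 3.66), Col4a1 (174 against 47.4 CPM, 1.87) and Col4a2 (1.81), Lamb2 (2.13), Lamc1 (1.67) and Lama2 (1.43). Col5a3, a chain of collagen V, stood at 95.6 against 14.9 CPM (2.68), and Timp3, an inhibitor of matrix proteases, at 210 against 35.3 CPM (2.57). Sparc, a matrix-binding glycoprotein, was the most abundant of the list at 1717 CPM, with a log2 ratio of 0.93. The lower genes were Gpc1, a heparan sulphate proteoglycan (14 against 99.7 CPM, -2.83), and Tnc, tenascin-C, with 0 UMIs against 123. Levels of stromal matrix genes also differ between barcode types, and the immune or stromal barcodes had a median share of 0.590% of UMIs from this list against 0.316% in quiescent cells and 0.199% in ASC cells. In the cells below the median depth of their population the shares were 0.263% in quiescent and 0.287% in ASC cells.

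Of 24 proliferation genes, 23 were lower and none was higher, with a median log2 ratio of -4.01, in which genes without a UMI stand at the floor of 3 UMIs. Ccna2, Ccnb1 and Ccnb2, the mitotic cyclins, and the kinase gene Aurkb had 0 UMIs in quiescent cells, against 430, 290, 374 and 102 in ASC cells. Cdk1 had 1 UMI against 390 (-5.98, -11.29 to -3.50), and Top2a, a topoisomerase of dividing cells, 2 against 403 (-5.03, -8.08 to -3.17). The 1 gene that was neither was Mcm4, a subunit of the replicative helicase, at 25.6 against 43.3 CPM (-0.75). Over quiescent cells the share of UMIs from the whole list had a median of 0% and a highest value of 0.572%, against a median of 0.0634% and a highest value of 1.09% in ASC cells. The ASC median was 0.0321% in cells below and 0.246% in cells above their median depth, while both were 0% in quiescent cells. Without the barcodes above 2 times the median depth, 20 of 24 genes were lower, with a median log2 ratio of -2.83.

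Of 20 cell cycle brakes, 11 were higher and 1 lower, with a median of 1.22. Leaving out the barcodes above 2 times the median depth, 8 of 19 were higher (median 0.71), and with equal weight per cell 8 of 20 (0.95). Btg1 (1528 against 569 CPM, 1.43) and Btg2 (1431 against 208 CPM, 2.79), antiproliferative adaptors of mRNA decay, were the most abundant, and Gas1, a growth arrest protein of the cell surface, stood at 803 against 105 CPM (2.94, 2.78 to 3.10). The Foxo factors Foxo3 (95.6 against 11.9 CPM, 3.01) and Foxo1 (127 against 21.3 CPM, 2.57) and the pocket protein gene Rbl2 (2.17) were higher, while Rb1 was neither (-0.36, -1.36 to 0.51). The cyclin-dependent kinase inhibitors went in opposite directions. Cdkn1b (p27) stood at 80.4 against 14 CPM (2.52, 2.03 to 3.02) and Cdkn1a (p21) at 625 against 256 CPM (1.29, 1.14 to 1.43), whereas Cdkn1c (p57), an inhibitor of committed cells, stood at 93.2 against 1125 CPM (-3.59, -3.93 to -3.28). Without the 12 cells with markers of other types the log2 ratio of Cdkn1c was -5.07.

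Early-response genes, which cells switch on within minutes of a stimulus, were the list with the largest share of higher genes (96.2%). Together the 26 genes took 43166 CPM, against 6349 CPM in ASC cells and 2933 CPM in fibre-rich barcodes. Of the 26, 25 were higher and none was lower, with a median log2 ratio of 2.37, and only Ier5 was neither (-0.40, -0.86 to 0.03). Fos stood at 8623 against 899 CPM (3.26, 3.21 to 3.31), Fosb at 3561 against 185 CPM (4.27, 4.16 to 4.37), Junb at 5437 against 711 CPM (2.93) and Jun at 4572 against 651 CPM (2.81). These encode the subunits of the transcription factor AP-1. At 1200 UMIs Fos had a lowest, median and highest count of 0, 7 and 59 in quiescent cells and of 0, 0 and 29 in ASC cells. Fosb was detected in 90.3% of quiescent cells against 23.9% of ASC cells, 6.67% of fibre-rich and 39.3% of immune or stromal barcodes. Of the other families, Egr1 stood at 1803 CPM (3.15), the orphan nuclear receptor gene Nr4a1 at 723 CPM (3.62), Klf4 at 987 CPM (2.77), and Cebpb, a bZIP factor of the acute response, at 3019 CPM (3.47).

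Among cells, the early-response share ran from 0.216% to 11.4% of UMIs in quiescent cells, with a median of 4.15% and quartiles of 3.10% and 5.28%. The ASC cells had a median of 0.613% and a highest value of 10.3%, so the ranges overlapped. The immune or stromal barcodes of the QSC library, which went through the same sort, had a median of 2.16% and the fibre-rich barcodes of 0.252%. Within the ASC cells the share moved with depth, with a median of 1.34% in cells below and 0.350% in cells above their median depth, whereas in quiescent cells the medians were 4.28% and 4.08%. Without the barcodes above 2 times the median depth the list median was 1.40, with 17 of 26 genes higher and none lower. With every cell given equal weight it was 1.56, with 21 higher. The part of the cell isolation in these levels was not tested. Of 12 heat shock genes, which encode chaperones and their partners, 2 were higher (Dnajb1 at 1.40 and Bag3 at 1.29) and 7 lower, with a median of -1.14. Leaving out the barcodes above 2 times the median depth, none was higher and 3 were lower (median -0.75), and with equal weight per cell none was higher and 6 were lower. Hspa1a was near the ASC level (268 against 206 CPM, 0.38), while Hspe1 (-2.29), Hspd1 (-1.64) and Hsp90aa1 (-1.54), chaperones of mitochondria and cytosol, were lower.

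**Figure D4:**
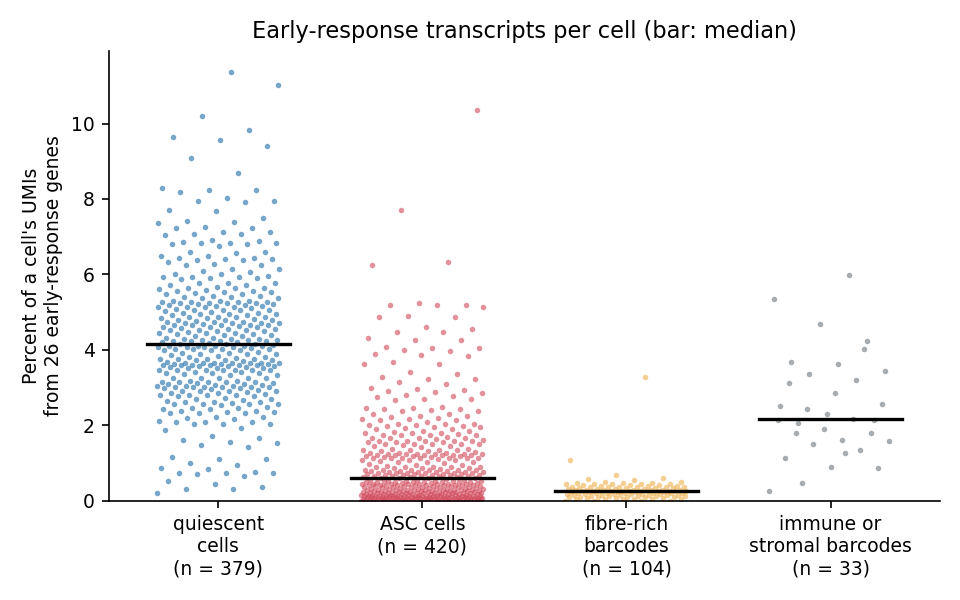
Percent of each cell's UMIs from 26 early-response genes (y axis) in the 4 populations, each point 1 cell and the black bar the median. Medians are 4.15% in quiescent cells, 0.613% in ASC cells, 0.252% in fibre-rich barcodes and 2.16% in immune or stromal barcodes.

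The promoters of 4 early-response genes are shown, of which Fos, Fosb and Junb encode subunits of AP-1 and Nr4a1 ranks second in the list by ratio. Jun, Jund and Fosl2, of the same families, are not shown and are not among the 9 genes found to hold TGACG. Only 21 of the 26 early-response genes had a promoter to search, so a gene outside the 9 is not shown to lack TGACG. The 4 shown therefore do not stand for the list. Cyclic AMP and calcium signals are known to reach such genes through the CRE motif, bound by CREB, of which TGACG is the core. The 250 bases before the RefSeq start of each gene (GRCm38.p6) are written 5' to 3' in the direction of the gene, with TGACG on either strand (CGTCA as read here) and TATAAA in capitals. Fos lies at chr12:85473640-85473889 on the plus strand, Fosb at chr7:19310046-19310295 on the minus strand, Junb at chr8:84978749-84978998 on the minus strand and Nr4a1, whose window lies within the longer GENCODE gene, at chr15:101266596-101266845 on the plus strand.
Fos: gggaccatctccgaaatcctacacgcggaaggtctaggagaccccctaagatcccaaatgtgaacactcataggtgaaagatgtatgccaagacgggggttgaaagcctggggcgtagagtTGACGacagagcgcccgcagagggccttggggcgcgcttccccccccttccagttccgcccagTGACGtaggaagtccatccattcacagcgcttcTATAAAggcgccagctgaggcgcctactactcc
Fosb: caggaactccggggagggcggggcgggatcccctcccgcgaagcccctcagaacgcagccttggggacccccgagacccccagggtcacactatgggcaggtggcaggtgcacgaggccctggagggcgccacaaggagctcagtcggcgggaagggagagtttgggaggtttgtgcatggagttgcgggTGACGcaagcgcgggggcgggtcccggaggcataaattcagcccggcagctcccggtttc
Junb: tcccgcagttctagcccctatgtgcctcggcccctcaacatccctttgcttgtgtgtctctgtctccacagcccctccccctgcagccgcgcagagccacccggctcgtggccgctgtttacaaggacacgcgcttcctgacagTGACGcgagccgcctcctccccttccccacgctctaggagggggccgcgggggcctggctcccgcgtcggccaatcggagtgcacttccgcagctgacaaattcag
Nr4a1: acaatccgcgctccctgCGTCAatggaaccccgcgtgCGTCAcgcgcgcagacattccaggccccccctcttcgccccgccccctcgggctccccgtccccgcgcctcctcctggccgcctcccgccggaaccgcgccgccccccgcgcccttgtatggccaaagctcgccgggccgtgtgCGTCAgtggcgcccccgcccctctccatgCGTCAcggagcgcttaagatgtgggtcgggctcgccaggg

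The Fos window holds TGACG with its first base 129 and 66 bases before the start, and TATAAA 33 bases before it. The Fosb window holds TGACG 60 bases and the Junb window 106 bases before the start. The Nr4a1 window holds its reverse complement 4 times, at 233, 213, 69 and 40 bases before the start. Of the 26 early-response genes 21 had a promoter in the table. TGACG was in 9 of the 21 (Atf3, Cebpb, Dusp1, Fos, Fosb, Junb, Klf2, Klf4 and Nr4a1), a share of 42.9%, and in 17.8% of all 32851 promoter windows of the same length. The full CRE, TGACGTCA, which contains TGACG on both strands, was in the Dusp1 window alone (1.55% of all windows). TATAAA was in 2 of the 21 (12.4% of all windows) and the CArG box, the site of serum response factor, in the Zfp36 window alone (1.47% of all windows). These are letter matches only.

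Of 23 ribosome biogenesis genes 13 were lower and none higher, with a median of -1.08. Leaving out the barcodes above 2 times the median depth, 6 of 22 were lower, with a median of -0.52, and the median share of UMIs was 0.237% in all quiescent cells against 0.255% in the ASC cells below their median depth and 0.368% in all ASC cells. Npm1, the nucleolar protein nucleophosmin, stood at 593 against 1960 CPM (-1.72, -1.85 to -1.60), Ncl (nucleolin) at 522 against 1106 CPM (-1.08) and Nhp2, of the snoRNA particles, at 62.9 against 403 CPM (-2.68). Of 82 ribosomal protein genes with at least 20 UMIs, 18 were lower, none was higher and 64 were neither, with a median of -0.70. Among 23 translation factors 7 were lower and 15 neither, and 4 were lower without the deepest barcodes and 11 under TMM scaling. Eif4a2, a helicase paralogue, was the 1 higher gene (399.8 against 183 CPM, 1.13). Eef1a1, which brings tRNA to the ribosome, stood at 3401 against 6919 CPM (-1.02) and Eef1b2, its exchange factor, at 307 against 1114 CPM (-1.86). Eif5a, the factor that carries hypusine, stood at 656 against 2025 CPM (-1.63, -1.75 to -1.50), while Eef2 stood at 2252 against 2597 CPM (-0.21).

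Of 13 polyamine genes, a pathway at the centre of the study and so no independent choice, 2 were higher and 5 lower, with a median of 0.14 that turned to -0.18 under TMM scaling. Without the deepest barcodes 2 of 11 were higher and 2 lower. Lower among the enzymes of synthesis were Odc1, ornithine decarboxylase, at 68.8 against 296 CPM (-2.11, -2.51 to -1.73), Srm, spermidine synthase, at 54.8 against 274 CPM (-2.32) and Sms, spermine synthase, at 61.8 against 137 CPM (-1.15). Amd1, which is also in the list, was not among the 5 lower genes. Dohh, which completes hypusine on the Eif5a protein, stood at 35 against 98.2 CPM (-1.49). Of the catabolic genes, Sat1, the spermidine/spermine acetyltransferase, stood at 289 against 72.7 CPM (1.99, 1.76 to 2.23), and Smox, spermine oxidase, at 18.6 against 7.74 CPM from 16 and 41 UMIs (1.27, 0.34 to 2.13). Smox was highest in fibre-rich barcodes, at 65.3 CPM (14 UMIs). Paox had 1 UMI against 37 (-2.58, -7.93 to -0.02).

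Of 15 glycolysis genes with at least 20 UMIs 6 were lower and none higher, with a median of -0.81. Gapdh stood at 1189 against 4363 CPM (-1.88), Pgk1 at 126 against 543 CPM (-2.11) and Pgam1 at 69.9 against 326 CPM (-2.22), while Aldoa, also a fibre enzyme, stood at 2831 against 2483 CPM (0.19) and at 18873 CPM in fibre-rich barcodes. Of 18 fatty acid oxidation genes 5 were higher and none lower, with a median of 0.52. This share is near that over all genes, and 1 of 18 was higher under TMM scaling and 2 without the deepest barcodes. Pdk4, the kinase that keeps pyruvate out of mitochondria, led it at 86.3 against 9.82 CPM (3.13, 2.60 to 3.68), and stood at 429 CPM in fibre-rich barcodes. Cpt1a, which admits fatty acids to mitochondria, stood at 19.8 against 8.50 CPM (1.22). Of 18 autophagy and lysosome genes 3 were higher (Lamp2 at 2.11, Sqstm1 at 1.71 and Ulk1 at 1.37) and none lower, with a median of 0.57. That share of 16.7% higher is below the share over all genes, and the median was 0.25 under TMM scaling and 0.29 without the deepest barcodes.

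RNA-binding proteins were near the background, with 4 of 17 higher and 1 lower. Zfp36l2, which destabilizes AU-rich mRNAs, stood at 537 against 89.3 CPM (2.59), and the splicing factors Mbnl2 (1.77) and Mbnl1 (1.43) and the RNA helicase Ddx6 (1.23) were also higher. Rbm3, an RNA-binding protein of the cold response, was lower at 293 against 1025 CPM (-1.81).

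Over all genes with at least 100 CPM in the quiescent cells, the 3 largest ratios belonged to Gm17167, Zbtb16 and Sik1, which are in none of the lists, followed by Fosb. Gm17167, a noncoding transcript (chr4:42206998-42235313, plus strand) that overlaps Gm13301 on the same strand, had 110 UMIs in quiescent and 3 in ASC cells, a log2 ratio of 7.82 (6.24 to 10.12). It had 0 UMIs in the fibre-rich barcodes and was spread over 86 quiescent cells with at most 4 UMIs each. Zbtb16 (PLZF), a zinc finger repressor, stood at 140 against 3.78 CPM (5.21, 4.52 to 5.97), and also at 60.6 CPM in fibre-rich and 178 CPM in immune or stromal barcodes. Sik1, a kinase induced by cyclic AMP, stood at 121 against 6.04 CPM (4.33). Gm17056, annotated antisense to Lsmem1 (chr12:40198656-40201105), stood at 282 against 18.7 CPM (3.92) and at 4.66 CPM in fibre-rich barcodes, and whether reads of the 2 strands were kept apart is not given in the sources used here. Ntf3, the neurotrophin-3 gene, stood at 111 against 7.93 CPM (3.80). Abca8a, Abi3bp, Ogn and Itih5, with log2 ratios from 3.61 to 4.01, were high in the immune or stromal barcodes as well (223 CPM or more), whereas Clmn and Pxdc1 (3.62 and 3.58) were not (11.2 and 22.3 CPM). Aqp1 (3.96) had 57 of its 86 UMIs in the 12 cells with markers of other types, and a log2 ratio of 2.43 without them.

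At the other end, several genes with many UMIs in the pooled ASC cells had few or none in quiescent cells. Spp1, the secreted phosphoprotein osteopontin, had 1 UMI against 2370 (-8.59, -13.89 to -6.11) and Timp1, an inhibitor of matrix proteases, 2 against 1046 (-6.41, -9.45 to -4.55). Hist1h2ap, a member of a family of near-identical histone genes whose reads can be split, had 1 UMI against 2451 (-8.63, -13.94 to -6.15). Pclaf, a partner of the replication clamp, had 0 against 1071, at least 57.8-fold lower against a floor of 3 UMIs (3.50 CPM). Actc1, the cardiac actin that developing muscle also makes, had 4 UMIs against 1240 (-5.65). The globin genes Hba-a1 and Hba-a2 had 14 and 16 UMIs against 2551 and 2131, and erythroid markers took up to 81.3% of the UMIs of an ASC cell against up to 0.104% of a quiescent cell.

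Within the same library, the quiescent cells were set beside the 104 fibre-rich barcodes, from which the rule itself separates them, so the following is a description. Of 5346 genes with at least 20 UMIs over both, 1969 (36.8%) were at least 2-fold higher in quiescent cells and 937 (17.5%) lower, with a median log2 ratio of 0.91. The split is 67.8% higher against 56.4% under median-of-ratios scaling. Gas1 (803 against 4.66 CPM, 7.43 from 1 UMI in the fibre-rich barcodes, 4.95 to 12.73), Cd9, a tetraspanin (7.07, 4.59 to 12.38), and Map1b, a microtubule protein (6.54, 4.68 to 9.59), had the largest ratios. Early-response genes (25 of 25 higher, median 4.08), satellite identity genes (15 of 19, 3.74) and Notch genes (8 of 10, 1.88) were higher, and Des, a muscle intermediate filament protein, was the 1 lower satellite identity gene (958 against 2564 CPM, -1.42). Glycolysis (10 of 14 lower, median -1.99) and fatty acid oxidation (9 of 16 lower, -1.21) were lower. The lowest ratios outside the rule belonged to the noncoding RNAs 2310075C17Rik and Gm12224 (antisense to Acsl6) and to fibre genes such as Trdn, of the calcium release complex (47.8 against 1315 CPM, -4.78), Myoz2 (-4.74) and Lmod3 (-4.66).

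The quiescent cells were not uniform among themselves. At 1200 UMIs the variance of a gene's UMI count over its mean, which is 1 for pure counting noise, had a median of 1.09 over 1237 genes with at least 100 CPM, and 50 genes exceeded 2. Fabp4 (12.3) and Aqp1 (10.4) were among the highest, and 85 of 95 and 57 of 86 of their UMIs came from the 12 cells with markers of other types. Fos (11.3), Mt1 (9.39), Malat1 (8.21), Gal (6.91), Ccn1 (5.99), Actb (5.92), Mt2 (5.79), Cxcl1 (4.30), Jun (4.09), Junb (4.0), Hspa1a (3.91), Tnfaip6 (3.69) and Sdc4 (3.64) followed. Of the other satellite markers, Chodl was at 1.41, Myf5 at 1.38 and Pax7 at 1.41.

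Gal, the neuropeptide galanin, was in 32.2% of cells with up to 23 UMIs, Cxcl1, a neutrophil chemokine, in 32.7% with up to 17 UMIs, and Tnfaip6, a hyaluronan-binding protein of inflammation, in 14.3% with up to 12 UMIs. In fibre-rich barcodes they stood at 55.9, 23.3 and 18.7 CPM, against 797, 687 and 212 CPM in quiescent cells. After thinning to equal depth, Gal had a mean of 0.986 UMIs per quiescent cell and 0.745 per ASC cell. Its highest counts were 23 and 19, and 251 of 370 quiescent and 296 of 415 ASC cells had none. Gal is therefore not particular to the quiescent cells. Cxcl1 had means of 0.797 and 0.186. The UMIs of Gal, Cxcl1 and Tnfaip6 were spread over 162, 161 and 66 quiescent cells before thinning. At most 2 UMIs of each came from the 12 cells with markers of other types. Over 370 cells of this 1 library, which share depth after thinning, Mt1 and Mt2 had a Spearman correlation of 0.68, with 0.72 in the cells below and 0.64 in those above the median depth. Fos and Jun had 0.49, Fos and Junb 0.34, and Actb and Sdc4 0.34. Fos and Mt1 had -0.23, with -0.11 and -0.35 below and above the median depth. Gal and Tnfaip6 had 0.15. Between the UMI sums of lists without shared genes all correlations lay between -0.15 and 0.22, which in counts this sparse is no finding. The early-response sum had a correlation of 0.05 with the mitochondrial share and of -0.04 with the total UMIs of a cell before thinning, and Malat1 one of -0.25 with total UMIs.

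**Figure D5:**
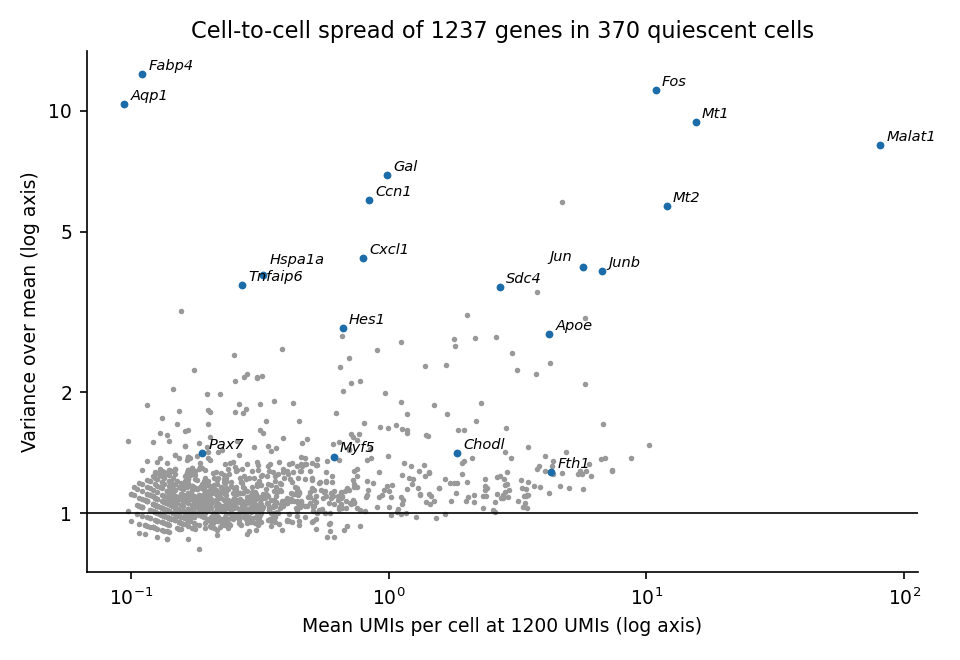
Variance over mean of UMI counts (y axis, logarithmic) against mean UMIs per cell (x axis, logarithmic) for 1237 genes over 370 quiescent cells thinned to 1200 UMIs, each point 1 gene, with the labelled genes in blue. The line at 1 is pure counting noise, most genes lie near it (median 1.09), and Fabp4, Fos, Aqp1 and Mt1 lie highest, from 9.39 to 12.3.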

How the data were processed

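The authors sorted cells, made 3' single-cell libraries and deposited filtered matrices of raw UMI counts for each library. Per the file headers these came from Cell Ranger 6.0.2, while the submitters' processing notes name Cell Ranger 7.1.0, Seurat 4.1.0, R 4.1.2 and mm10. The gene annotation and strand handling are not given in the sources used here. The study's limit of 1% mitochondrial UMIs leaves 1 quiescent cell and was not applied.

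The members and gene lists were chosen with earlier results of these data known. Counts were summed over cells and divided by all UMIs (CPM). A level and a ratio carry exact Poisson and conditional binomial 95% intervals, and a share a Clopper-Pearson interval (scipy 1.17.1). A count of 0 was set at a floor of 3 UMIs, or 3.50 CPM in quiescent cells, 0.567 CPM in ASC cells and 14.0 CPM in fibre-rich barcodes. Named genes are the 15 most abundant, the 15 highest and 15 lowest ratios over ASC cells, the 10 highest and 10 lowest over fibre-rich barcodes, the 15 most variable, and for each list the most abundant genes and largest ratios, with some further list genes chosen after their values were seen. No doublets were removed, and Scrublet (scanpy 1.11.5) called 7 of 516 kept QSC barcodes, of which 6 were quiescent cells, and 3 of 1468 in ASC. TMM (edgeR 4.0.16) and median-of-ratios (DESeq2 1.42.0) served for scaling only. Scripts were tested on simulated data. GENCODE M21 and RefSeq (GRCm38.p6) gave positions and promoters.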

Additional observations from a re-analysis of the deposited data

How the results depend on the processing

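Under the alternatives tried only 2 list medians, both near 0, changed sign: polyamine under TMM (-0.18) and median-of-ratios scaling (-0.16), and myogenic regulators under the mitochondrial limit of 5% (0.03). A mitochondrial limit of 5% kept 222 cells and one of 1% kept 1, on which nothing else was computed. Under TMM scaling 2221 genes were lower than in ASC cells, and the medians of satellite identity, brakes, early response, glycolysis and translation factors were 0.46, 0.90, 2.05, -1.13 and -0.91 (median-of-ratios 0.48, 0.92, 2.06, -1.12 and -0.90). Without barcodes above 2 times the median depth, 1342 genes were higher and 930 lower, and the medians of satellite identity, brakes, early response, niche and ribosome biogenesis were 0.46, 0.71, 1.40, 0.74 and -0.52. With equal weight per cell, an alternative chosen after seeing the data like the next, early response, niche and ribosome biogenesis were 1.56, 0.89 and -0.74. Leaving out the 12 cells with markers of other types moved no count of calls by over 1.5 times. At a minimum of 100 UMIs 854 genes were higher and 1161 lower than in ASC cells, so that higher genes were 42.4% of calls instead of 58.8%, and 624 were higher and 357 lower than in fibre-rich barcodes. With at least 800 genes per cell 1111 were higher than in fibre-rich barcodes, and without immune and stromal limits the niche median was 2.10. At 800 UMIs Chodl was in 66.8% of cells and 29 genes exceeded a variance over mean of 2. At 2000 UMIs Pax7 was in 33.6%, Chodl in 91.3%, and 76 genes exceeded it. The Spearman value of Fos and Mt1 was -0.11 below and -0.35 above the median depth. In all 35 values for main comparisons moved past their limits and 219 stayed within them. Of the ratios of single named genes, 164 values moved outside their counting intervals and 650 stayed within them. Shifts of counts within several lists are given with those lists. No paired analysis was possible because there was 1 library per group, and no replicate could be left out. Depth limits low genes most: a gene below 3.50 CPM in quiescent cells is within the limit that a count of 0 allows.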
